A study of Rattus norvegicus with 11 samples.

Results

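The 6 normal bladder samples of the series were examined here, 3 of week 4 and 3 of week 5, out of 11 samples in all. They were chosen by their labels, which give Sprague-Dawley rats, bladder tissue, a normal state and a week. The other 5 samples were bladders with partial bladder outlet obstruction (PBOO), 3 of week 4 and 2 of week 5, and were used only to see the same pair of weeks in other libraries. According to the study's methods, the animals were adult females, and the controls were sham-operated: the abdomen was opened and sutured without obstruction. No agent, transgene or deletion was given to any group. All libraries measured total bladder RNA, so fewer cells of a type and less RNA per cell cannot be told apart. The normal samples of the weeks were separate sets of libraries. Week, animals and the preparation and processing of each set therefore cannot be told apart, and "week 5" below names a set of 3 libraries.

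The bladder wall is built of a urothelium that faces the urine, a lamina propria of fibroblasts, vessels and nerves, and the detrusor, a thick smooth muscle coat. Urothelial umbrella cells carry plaques of uroplakins that seal the surface against urine. Detrusor cells contract when acetylcholine acts on muscarinic receptors and ATP acts on the P2X1 channel, and store urine at low pressure when they relax.

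Expression was given as FPKM (fragments per kilobase of transcript, scaled to the mapped fragments of the library) for 18507 genes. The values of one sample summed to 544054 to 564343 FPKM in the normal samples of week 4 and to 424961 to 433241 FPKM in those of week 5. In week 4, 12721 to 12929 genes were above 0, and in week 5 there were 16261 to 16792. Of the genes listed, 4871 were at 0 in all 6 samples of week 4, PBOO included, and 403 were at 0 in all 5 samples of week 5. Among the 4871, 52.4% carried a symbol that is current in RefSeq (GRCr8 rat assembly), against 95.8% of the 13233 genes above 0 in each week. These genes took 8.8% to 10.7% of the FPKM sum of a normal week 5 sample. They included genes that every cell uses, so a 0 in week 4 can be a failed estimate and was not read as absence.

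Krt7, a keratin of simple and urothelial epithelium, was listed at 0 in each week 4 library and at 846, 595 and 956 FPKM in normal week 5. Atp5b, an older symbol of the ATP synthase beta subunit, was likewise listed at 0 in week 4, and at 793, 692 and 734 FPKM in week 5. The same held for Snx31, a sorting nexin of the urothelium, with 374, 381 and 390 FPKM in week 5. Of the genes at 0 in week 4, 60 had a mean of at least 100 FPKM in normal week 5. In the other direction only 2 genes at 0 in normal week 5 reached a mean of 10 FPKM in week 4. These were the skeletal muscle light chain Myl1, at 1.54, 35.9 and 45.3 FPKM, and myoglobin, Mb, at 0.814, 19.2 and 37.7 FPKM. Values of a gene are always given in the order of replicates 1, 2 and 3.

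Several libraries stood apart from the others of their group or from the study's description. Eif2s3y, a translation initiation factor gene of the Y chromosome, was at 20.9, 24.8 and 15.8 FPKM in the 3 normal week 5 samples. Kdm5d, a Y-linked histone demethylase, was at 5.61, 5.97 and 5.25 FPKM there. The PBOO samples of week 5, listed with the same symbols, had 0 and 0.032 FPKM of Eif2s3y and 0 of Kdm5d. Both genes were also at 0 throughout week 4, where a 0 can be a failed estimate. The third Y-linked gene of the list, Ddx3y, was at most 0.353 FPKM in any normal sample. The list also held Ddx3, a symbol that RefSeq gives both for an autosomal gene and as an older name of Ddx3y. Ddx3 was at 0 in normal week 4 and above 0 in all 3 normal week 5 samples. Its values are not reported here because the symbol is ambiguous, and the Ddx3y values may not hold all reads of that gene. The presence of Y-linked transcripts in normal week 5 goes against the description of the animals as females. The zeros of week 4 do not settle the sex of those animals. Sex may therefore be a further difference that cannot be told apart from week in the normal samples. The comparison of PBOO weeks given further on does not contain the normal week 5 libraries, but the difference of the week differences does.

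Replicate 2 of normal week 5 held secretory transcripts that were near 0 in the other week 5 samples, PBOO included. Psbpc2, a prostatic steroid-binding protein subunit, was at 0.412, 3462 and 1.2 FPKM in week 5. The secretoglobin Scgb2a1 was at 0.377, 1642 and 0.429 FPKM, and Andpro, named for androgen-regulated protein, was at 0.58, 1185 and 0.412 FPKM. Of related genes, 3 chosen after their values were seen showed the same library. Pbsn (probasin, a secretory protein of the rodent prostate) was at 30.8 FPKM in replicate 2 and at 0 in the others. Klk1c9, a glandular kallikrein, was at 407 FPKM against 0.159 and 0.0738, and the secretoglobin Scgb1d2 was at 752 FPKM against 0.196 and 0.32. Hoxb13, a homeobox gene of the prostate and hindgut, was at 1.23, 13.8 and 0.631 FPKM. All of these except Hoxb13 were listed at 0 in week 4, where a 0 can be a failed estimate, and did not enter the test.

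The other departures were wider. Each sample was compared with the mean log2 value of the other samples of its week. Replicate 1 of normal week 4 was more than 2-fold below that mean in 712 of 11131 genes, the highest count of the 6 samples. Among them were 28 of the 32 leukocyte genes and 18 of the 43 matrix and fibroblast genes tested. The summed level of the leukocyte list was 175, 1097 and 1218 FPKM in week 4, and that of the matrix list 4621, 11287 and 11689 FPKM. The beta globin Hbb was at 13.5, 425 and 376 FPKM. Replicate 3 of normal week 5 was low in immediate early genes, of which 18 of 38 were more than 2-fold below the mean of the others. Fos, a subunit of the AP-1 transcription factor, was at 205, 333 and 20.9 FPKM in week 5 and at 60.1, 240 and 196 FPKM in week 4. Egr1 was at 331, 577 and 12.3 FPKM in week 5. Replicate 2 of normal week 4 stood out in interferon response genes, described below.

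**Figure D1:**
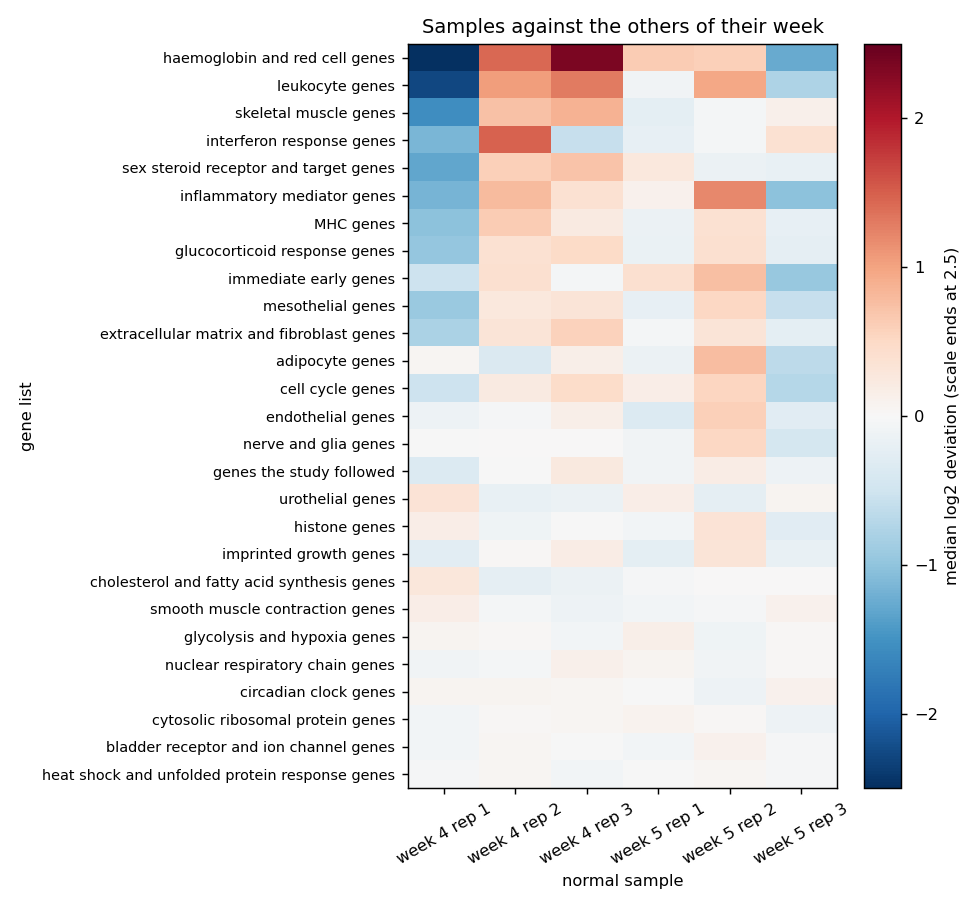
Median log2 deviation of each gene list in each normal sample from the mean of the other samples of its week, with FPKM on the log2(FPKM + 0.1) scale (columns, samples; rows, lists; red above, blue below the other samples). The week 4 replicate 1 column is at -2.28 for leukocyte genes, the week 4 replicate 2 column at 1.48 for interferon response genes, and the week 5 replicate 3 column at -0.95 for immediate early genes.

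Even so, the normal samples of both weeks had much in common. Across the 11131 genes compared, the Spearman correlation between samples was 0.963 to 0.989 within week 4, 0.976 to 0.990 within week 5 and 0.875 to 0.919 between the weeks, as a description across genes. Between normal and PBOO samples of week 4 this correlation was at least 0.915, so its lowest value was near the highest between the normal weeks. Between normal and PBOO samples of week 5 it was lower, at 0.841 to 0.889. The normal weeks were therefore not closer to each other than normal and PBOO samples of week 4 were. Of the 100 genes with the highest mean of each normal week, 79 were shared, and of the 20 highest, 11 were shared. The median SD within a week on the log2 scale was 0.154 in week 4 and 0.15 in week 5. The 95% confidence interval of the week difference lay within a 2-fold change for 5362 genes (48.2%).

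Smooth muscle genes led the shared profile. Of 37 contractile genes tested, 23 had an interval within a 2-fold change. Tagln (transgelin, an actin-binding protein of smooth muscle) was at 10874, 11311 and 11291 FPKM in week 4 and at 9124, 7632 and 10278 FPKM in week 5. Actg2, the enteric gamma actin of visceral muscle, was at 4834, 4187 and 4242 FPKM and at 5525, 4767 and 5541 FPKM. Tagln lay below the week 4 range in all 3 week 5 samples, by less than a call requires (log2 difference -0.32 ± 0.13 SE, adjusted p = 0.0711), and the groups overlapped for Actg2 (0.25 ± 0.11, adjusted p = 0.0795). The motor itself was as close. Myh11, the smooth muscle myosin heavy chain, was at 2453, 2294 and 2073 FPKM in week 4 and at 2240, 2079 and 2401 FPKM in week 5, a log2 difference of -0.02 ± 0.10 with a 95% interval of -0.26 to 0.22. Desmin (Des), the intermediate filament of muscle, was at 2561, 2248 and 1917 FPKM and at 2945, 2497 and 2516 FPKM. Together the contractile list made up 7.21% to 7.79% of the FPKM sum in week 4 and 8.67% to 10% in week 5.

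Uroplakin levels were likewise near each other. Upk3a, a uroplakin of the umbrella cell plaque, was at 1850, 1250 and 1646 FPKM in week 4 and at 1764, 1557 and 1796 FPKM in week 5. Its log2 difference was 0.12 ± 0.15 with a 95% interval of -0.25 to 0.49. Upk1a, a tetraspanin partner in the same plaques, was at 1655, 1496 and 1646 FPKM and at 1586, 1290 and 1732 FPKM. The groups overlapped for both genes. The P2X1 channel gene P2rx1 was at 385, 515 and 508 FPKM in week 4 and at 498, 488 and 661 FPKM in week 5, and Atp2a2, the calcium pump of the muscle store, at 131, 149 and 140 FPKM and at 149, 155 and 134 FPKM. Both had intervals within a 2-fold change. Uroplakins, contractile genes and the P2X1 channel show the labelled tissue in all 6 samples. Mesothelial genes summed to 26.1 to 31.4 FPKM in week 4 and 114 to 124 FPKM in week 5, but 3 of the 8 in the table were listed at 0 in week 4. Over the 3 that could be tested the sums were 25.4 to 29.7 and 43.8 to 57.9 FPKM, and their median log2 difference was -1.20 relative to that of all genes. Msln, the mesothelin of that cell layer, was called higher, at 23, 23.5 and 18.7 FPKM and at 42.9, 55.2 and 46.9 FPKM. Pkhd1l1, a large fibrocystin-like membrane protein, was called lower, at 1.4, 2.89 and 2.57 FPKM and at 0.173, 0.235 and 0.104 FPKM.

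**Figure D2:**
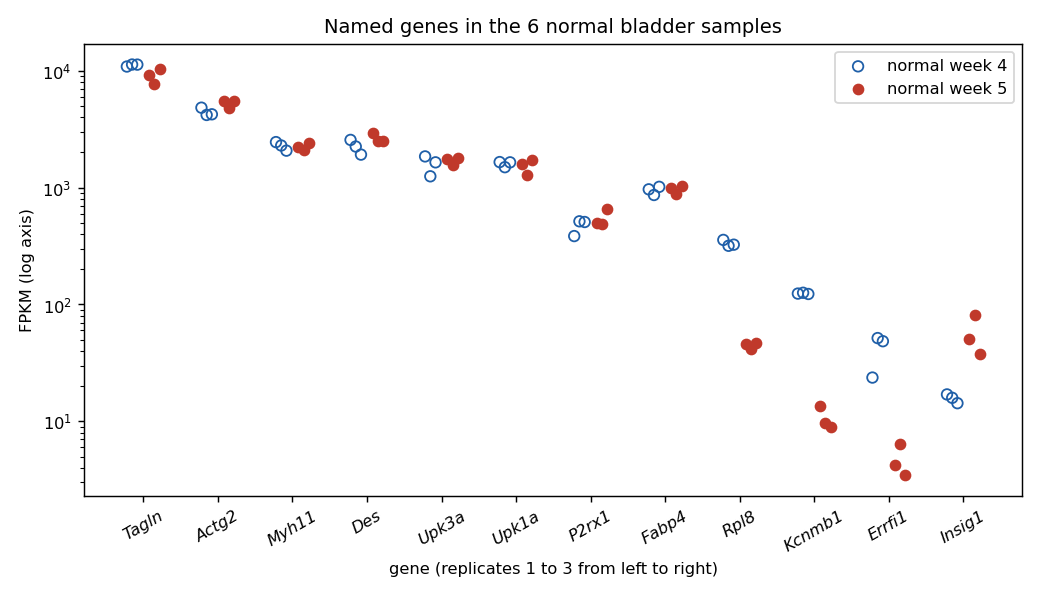
FPKM of 12 named genes in each of the 6 normal samples on a log axis (open circles, week 4; filled circles, week 5). Smooth muscle genes and uroplakins overlap or lie close between the weeks, while Rpl8, Kcnmb1 and Errfi1 are lower and Insig1 is higher in all 3 samples of week 5.

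Differences between the weeks were nonetheless many. Of 11131 genes tested, 3174 (28.5%) were called at an adjusted p below 0.05 and at least a 2-fold change, 256 (2.30%) higher and 2918 (26.2%) lower in week 5. The groups did not overlap in 69.6% of the genes, 1310 with week 5 above and 6432 with it below. This asymmetry depended on the scale of the tables. The median log2 difference over all genes was -0.52, and list values below are given relative to it. Calls higher in week 5 made up 8.1% of all calls on the deposited values and 40.1% after scaling the samples by median ratios (905 higher, 1353 lower). They made up 26.3% after setting all FPKM sums equal and 48.7% after quantile normalization. Of all genes, median-ratio scaling called 8.13% higher and 12.2% lower, the shares that list counts under that scaling stand beside. All 256 higher calls were kept under each of the 3 scalings, and no gene was called in the opposite direction. Each scaling raised the median log2 difference, to between -0.16 and 0.04. Such a rise largely fixes both of these outcomes in advance, so they do not test the higher calls. Of the 2918 lower calls, 1353, 1708 and 1114 were kept after median-ratio scaling, equal sums and quantile normalization.

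**Figure D3:**
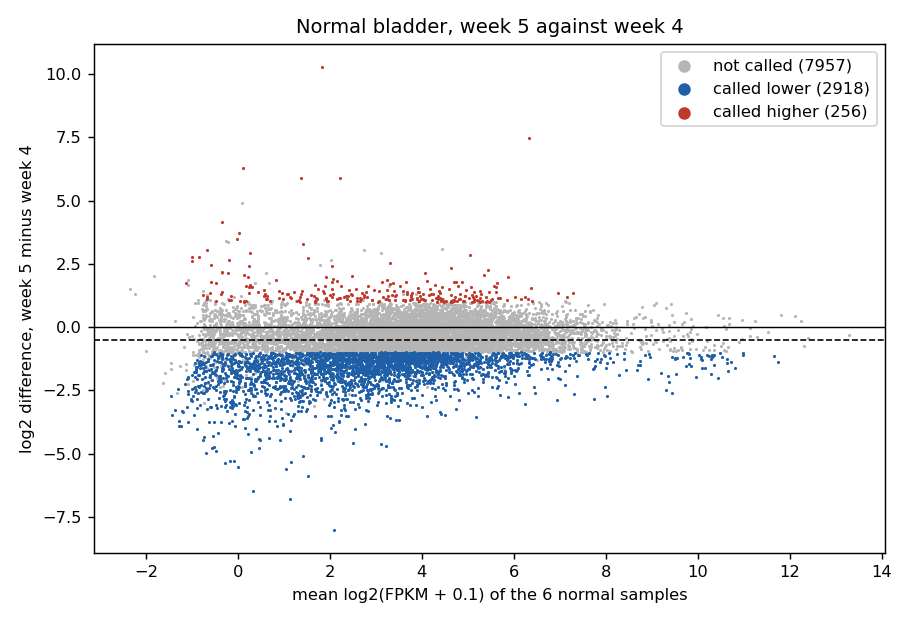
Log2 difference of week 5 minus week 4 against the mean log2(FPKM + 0.1) of the 6 normal samples for 11131 genes (grey, not called; red, 256 higher; blue, 2918 lower). The dashed line marks the median of all genes at -0.52 and the solid line marks 0.

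The largest differences were far beyond the spread within a week. Myl6, the essential light chain of smooth muscle and non-muscle myosin, was at 1.87, 9.72 and 11.5 FPKM in week 4 and at 1170, 996 and 1080 FPKM in week 5 (log2 difference 7.47 ± 0.64, adjusted p = 1.19e-04). In the opposite direction, Dhrs7, a short-chain dehydrogenase, was at 58.8, 71.7 and 73.7 FPKM in week 4 and at 0.464, 0 and 0.23 FPKM in week 5. Rab5a, a GTPase of early endosomes, was at 43.3, 45 and 53.2 FPKM and at 1.96, 0.872 and 2.95 FPKM. Each of these 3 genes was also called in the same direction between PBOO samples of the weeks, with log2 differences of 5.8, -8.21 and -4.35. Stx8 (a syntaxin of endosomes) and Med27 (a Mediator subunit) followed that pattern, with log2 differences of -4.59 and -4.45 in normal and -4.14 and -3.92 in PBOO samples. Of 43 genes called with an absolute log2 difference of at least 4 between normal samples, 37 were called in the same direction in PBOO samples. Between the PBOO weeks 39.1% of all genes were called in either direction.

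Among the largest increases, some symbols could not be separated from a near copy. Myh9l1 was at 0.0035, 0 and 0 FPKM in week 4 and at 132, 102 and 145 FPKM in week 5, and RefSeq lists it as an older symbol of Myh9, the non-muscle myosin heavy chain that the table also holds at 104, 65 and 70.4 FPKM and at 151, 118 and 171 FPKM. Tsen34l1 was called higher as well and is an older symbol of Tsen34. Romo1, a mitochondrial membrane protein gene, was listed at 0, 22 and 0 FPKM in week 4 and at 37.2, 34.7 and 36.3 FPKM in week 5, so its call rests on listed zeros. Psmb6, a catalytic proteasome subunit, was at 12.4, 10.6 and 13.5 FPKM and at 89.2, 81.7 and 94.6 FPKM (2.85 ± 0.11). Its PBOO difference was 3.55. Hspa1a, the inducible HSP70 chaperone, was at 24.2, 20.8 and 15 FPKM in week 4 and at 86.1, 85.1 and 115 FPKM in week 5 (2.26 ± 0.20, adjusted p = 1.41e-04), and was the only one of 18 heat shock genes called higher. It too was called higher between the PBOO weeks, by 2.78. Acot3, an acyl-CoA thioesterase, was higher by 2.43 ± 0.16.

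Genes of cholesterol and fatty acid synthesis had the highest median difference of the lists. Of 17 tested, 8 were called higher and none lower, and the list median was 1.5 above that of all genes on the log2 scale. After median-ratio scaling 14 were called higher, and without replicate 2 of week 4 there were 5. Insig1, which holds back activation of SREBP when sterol is plentiful, was at 17, 15.9 and 14.3 FPKM in week 4 and at 50.3, 81.9 and 37.5 FPKM in week 5 (1.77 ± 0.27). Fasn, the fatty acid synthase, was at 41.9, 23 and 20.5 FPKM and at 96.4, 74.5 and 102 FPKM (1.73 ± 0.27). The week 5 samples were above the week 4 samples without overlap in both genes. Lss, which closes the sterol ring, was called as well (1.07 ± 0.12), a call lost without replicate 2 of week 4. Fdps, Msmo1 and Srebf2 lay higher in all 3 week 5 samples at less than a 2-fold change, with log2 differences of 0.50, 0.64 and 0.83. The summed list was 542, 426 and 433 FPKM in week 4 and 895, 911 and 903 FPKM in week 5. Between PBOO weeks 4 of the 17 were called higher and 1 lower, Fasn (1.49) and Lss (1.19) among the higher, while Insig1 (-0.12) was not called.

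In the urothelial list, 3 of 36 genes were called higher and 1 lower, with a median 0.58 above all genes. Grhl2, a transcription factor of epithelial junctions, was at 11.3, 9.27 and 10.5 FPKM in week 4 and at 25.1, 27.7 and 23.6 FPKM in week 5 (1.29 ± 0.11, adjusted p = 1.16e-04). Foxa1, a transcription factor of urothelial differentiation, was at 32.5, 26 and 26.1 FPKM and at 64.7, 66 and 60.4 FPKM (1.18 ± 0.11). Shh, the hedgehog ligand that basal urothelium sends to the stroma, was at 55.4, 37.9 and 38.5 FPKM and at 106, 120 and 72.2 FPKM (1.17 ± 0.23). These 3 genes did not overlap between the weeks. Tp63, the p63 factor of basal cells, was the one lower gene, at 28.5, 22.5 and 21.5 FPKM and at 10.4, 7.11 and 8.99 FPKM (-1.45 ± 0.17), and it lost its call after median-ratio scaling, which called 8 urothelial genes higher and none lower. Without replicate 2 of week 5 there were 5 higher calls, and without replicate 3 of week 4 or replicate 1 of week 5 there were 2 lower calls. Trpm4, a calcium-activated cation channel, was higher by 1.06 ± 0.17, the only higher call among the receptors and channels. Trpm4 lost its call without replicate 2 or 3 of week 4 and without replicate 3 of week 5.

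Beyond this contractile core, 9 of the 37 smooth muscle genes were called lower and only Myl6 higher. These shares were near those of all genes, 26.2% lower and 2.30% higher, and the list median lay 0.20 above that of all genes. After median-ratio scaling 3 were higher and 6 lower. Kcnmb1, the beta subunit that tunes the BK potassium channel of smooth muscle to calcium, was at 124, 126 and 123 FPKM in week 4 and at 13.5, 9.59 and 8.95 FPKM in week 5 (-3.55 ± 0.15, adjusted p = 1.99e-05). Dmd, dystrophin, was at 18.1, 18.2 and 16.2 FPKM and at 2.27, 1.7 and 2.22 FPKM (-3.04 ± 0.14). Itga8, an integrin of smooth muscle and mesenchyme, was lower as well (log2 difference -2.30 ± 0.30). No sample of one week reached the range of the other in these genes. Chrm3, the muscarinic receptor that drives detrusor contraction, was lower as well, at 6.85, 8.69 and 7.72 FPKM and at 1.58, 2.32 and 1.27 FPKM (-2.14 ± 0.23, adjusted p = 2.99e-04), as was Chrm2 at 19.9, 24 and 18.3 FPKM and at 8.53, 8.31 and 9.47 FPKM (-1.22 ± 0.12). Chrm2 lost its call after median-ratio scaling. Of 35 bladder receptors and channels, 15 were called lower and 1 higher, and the list median was -0.09 relative to all genes. After median-ratio scaling 7 were lower and 5 higher. Between PBOO weeks 36 of the 37 contractile genes were called lower, with a median log2 difference of -5.17 against -0.32 in normal samples.

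Stromal, vascular and neural genes were called lower more often than higher, as were genes at large. Of 43 matrix and fibroblast genes 13 were lower and 1 higher, with a median -0.27 relative to all genes. Mfap5, a microfibril protein, was at 34.2, 103 and 125 FPKM in week 4 and at 7.98, 18.7 and 7.16 FPKM in week 5 (-2.89 ± 0.57). Dcn, the small proteoglycan decorin, was at 361, 1719 and 1540 FPKM and at 236, 277 and 209 FPKM (-2.04 ± 0.57, adjusted p = 0.0179), a call lost without replicate 2 or 3 of week 4, without replicate 1 or 3 of week 5 and after median-ratio scaling. Col3a1 (370, 1086 and 1164 FPKM against 600, 658 and 476 FPKM) and Col1a1 (150, 459 and 557 FPKM against 683, 575 and 516 FPKM), the fibrillar collagens, were not called. The wide range within week 4 came with replicate 1, and without it 22 matrix genes were called lower and 1 higher. The 13 lower calls became 7 without replicate 2 or replicate 3 of week 4 and 8 without replicate 1 of week 5. After median-ratio scaling 4 were lower and 3 higher. Thbs1, the matricellular thrombospondin, was the single higher gene of this list (1.40 ± 0.40), and it lost its call without replicate 2 or 3 of week 4 and without replicate 1 or 3 of week 5.

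Endothelial genes gave 8 lower and no higher calls among 17, with a median of -0.48 relative to all genes, and 4 lower and 1 higher after median-ratio scaling. Emcn, the endomucin of capillaries and veins, was at 30.4, 40.1 and 52.8 FPKM in week 4 and at 4.92, 9.68 and 5.07 FPKM in week 5 (-2.67 ± 0.31, adjusted p = 4.06e-04). Tek, the angiopoietin receptor, was at 11.9, 16.6 and 17.5 FPKM and at 2.85, 4.38 and 2.42 FPKM (-2.24 ± 0.25). Not all members followed: Plvap, at 66.5, 59.7 and 77.9 FPKM and at 38, 63 and 51.9 FPKM, overlapped between the weeks (-0.44 ± 0.19). Among 19 nerve and glia genes 6 were lower and none higher, with a median of -0.17 relative to all genes. The share of all genes called lower was 26.2%. After median-ratio scaling 4 nerve and glia genes were lower and 2 higher. Cdh19, a cadherin of Schwann cell precursors, was among the lower genes (-2.43 ± 0.34). Mbp, shared by central and peripheral myelin, was at 15.8, 11.1 and 12 FPKM and at 12.4, 13.1 and 12.3 FPKM.

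Adipocyte genes were split. Of 11 tested, 8 were called lower and none higher, while the summed list was 1089 to 1321 FPKM in week 4 and 1087 to 1231 FPKM in week 5. Most of that sum was Fabp4, a fatty acid carrier that endothelium also expresses, which was at 967, 865 and 1016 FPKM in week 4 and at 1001, 879 and 1035 FPKM in week 5 (0.03 ± 0.10). Adipoq, the hormone adiponectin that defines fat cells, was at 20.1, 18.3 and 28.6 FPKM and at 0, 5.13 and 0 FPKM. Cfd, the adipocyte protease adipsin, was at 54, 65 and 98.4 FPKM and at 4.05, 20.6 and 3.23 FPKM (-3.42 ± 0.68, adjusted p = 0.00422). Replicate 2 held the highest value of both genes in week 5. Without it 8 of the 11 were called lower, and after median-ratio scaling 4 were lower and 1 higher. Of 15 skeletal muscle genes 7 were lower in week 5, and 10 without replicate 1 of week 4. Mylpf, a fast light chain, was at 6.07, 50.2 and 54.5 FPKM and at 1.32, 2.17 and 1.7 FPKM.

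**Figure D4:**
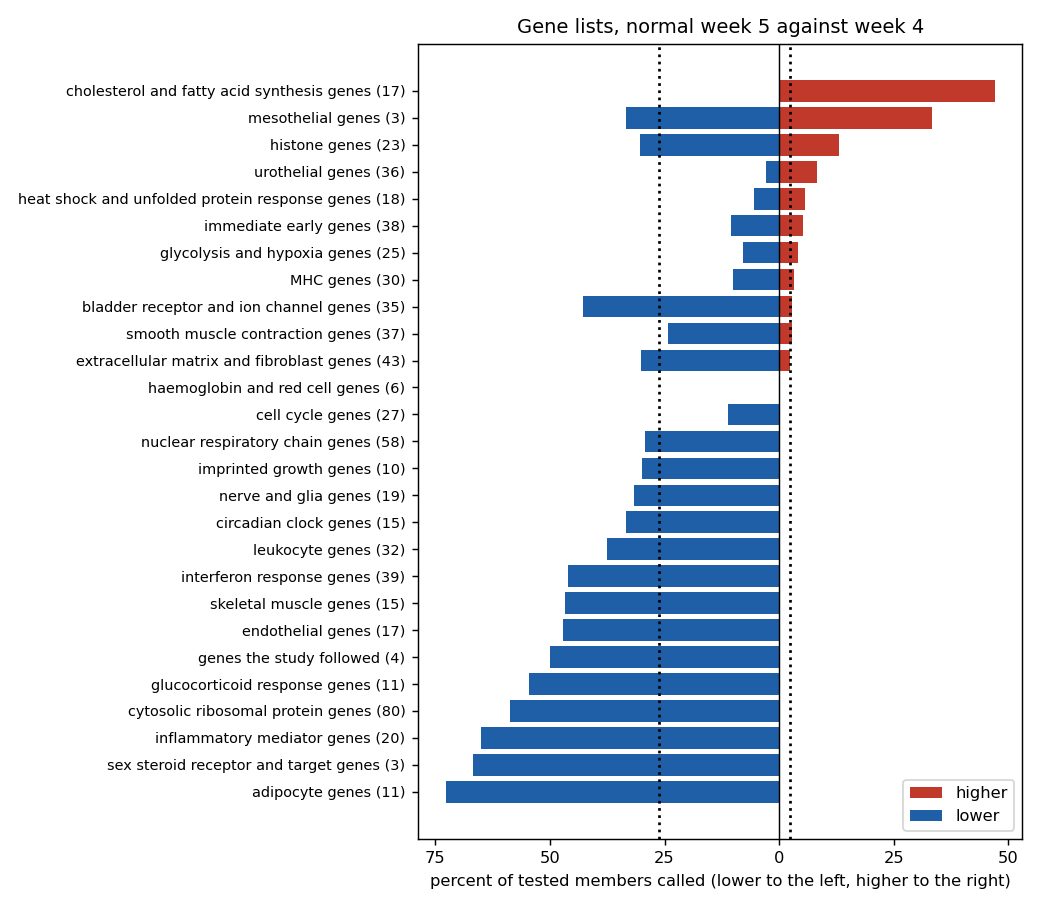
Percent of the tested members of each gene list that were called higher (red, to the right) or lower (blue, to the left) in normal week 5 than in normal week 4, with the number tested in brackets. Dotted lines mark the percent of all 11131 genes, 2.30% higher and 26.2% lower. Cholesterol and fatty acid synthesis genes reach furthest to the right, with 8 of 17.

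Leukocyte calls depended on several libraries. Of 32 tested, 12 were called lower and none higher, with a median of -1.05 relative to all genes. Without replicate 1 of week 4, 26 were called lower, in a comparison that called 28.9% of all genes lower. Without replicate 2 of week 4, replicate 3 of week 4 or replicate 1 of week 5 there were 5 each, and without replicate 3 of week 5 there were 7. After median-ratio scaling 5 were lower, beside 12.2% of all genes. The summed list was 106 to 231 FPKM in week 5. Mast cell genes had the largest differences. Cpa3, the mast cell carboxypeptidase, was at 1.04, 14 and 10.6 FPKM in week 4 and at 0, 0.195 and 0 FPKM in week 5 (adjusted p = 0.0035), and the chymase Cma1 at 2.09, 7.88 and 7.05 FPKM and at 0, 1.09 and 0.066 FPKM (adjusted p = 0.00858). C1qa, a complement gene of macrophages, was at 17.1, 135 and 136 FPKM and at 20.4, 39.1 and 13.9 FPKM and was not called (-1.61 ± 0.84), but was called lower without replicate 1 of week 4. Its low week 4 value was again that of replicate 1. Of 20 inflammatory mediators 13 were called lower and none higher, with a median of -1.37 relative to all genes. There were 8 without replicate 2 or replicate 3 of week 4, and 8 after median-ratio scaling. The B cell chemokine Cxcl13 was at 1.76, 12.2 and 12.2 FPKM and at 0.36, 0.475 and 0 FPKM, and Ccl21, which draws lymphocytes and dendritic cells to lymphatics, was at 62.9, 235 and 237 FPKM and at 20.6, 59 and 9.4 FPKM (-2.75 ± 0.77). Ccl21 lost its call without replicate 2 or 3 of week 4 and without replicate 1 or 3 of week 5. Red cell genes gave no call among 6, and 4 were called lower without replicate 1 of week 4.

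Interferon response genes differed between the weeks and also within week 4. Type I interferons act through a transcription factor complex that binds response elements holding repeated GAAA cores, and Irf7 then amplifies the response. The promoters of 4 members are shown as examples that hold such a core and whose genes were highest in replicate 2 of week 4. RefSeq (GRCr8) gave a promoter for 30 of the 41 members in the table. In the 250 bases before the start site, the core (GAAA, any 2 bases, GAAA) was found on either strand in 19 of the 30 (63.3%), overlapping matches included, against 3.29% of 27457 promoters. Capitals mark the matches. The windows are chr1:205800024-205800273, minus strand, for Irf7, chr1:241527076-241527325, plus strand, for Ifit3, chr6:48788121-48788370, minus strand, for Rsad2 and chr12:41330216-41330465, plus strand, for Oas1a, each written 5′ to 3′ along its gene.
Irf7: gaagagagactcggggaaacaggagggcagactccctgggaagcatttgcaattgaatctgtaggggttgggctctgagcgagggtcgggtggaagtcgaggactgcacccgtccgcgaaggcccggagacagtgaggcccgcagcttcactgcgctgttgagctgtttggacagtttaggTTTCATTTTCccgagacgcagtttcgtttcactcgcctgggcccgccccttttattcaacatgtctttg
Ifit3: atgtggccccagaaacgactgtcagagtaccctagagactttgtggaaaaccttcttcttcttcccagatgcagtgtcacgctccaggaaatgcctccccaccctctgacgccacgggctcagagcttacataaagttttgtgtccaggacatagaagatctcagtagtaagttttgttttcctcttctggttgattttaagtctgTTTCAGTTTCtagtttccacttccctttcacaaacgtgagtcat
Rsad2: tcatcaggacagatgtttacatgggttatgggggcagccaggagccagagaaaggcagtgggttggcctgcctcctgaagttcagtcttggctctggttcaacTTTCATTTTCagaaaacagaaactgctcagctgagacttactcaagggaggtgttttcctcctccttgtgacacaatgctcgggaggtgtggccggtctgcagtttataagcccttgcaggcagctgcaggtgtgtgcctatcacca
Oas1a: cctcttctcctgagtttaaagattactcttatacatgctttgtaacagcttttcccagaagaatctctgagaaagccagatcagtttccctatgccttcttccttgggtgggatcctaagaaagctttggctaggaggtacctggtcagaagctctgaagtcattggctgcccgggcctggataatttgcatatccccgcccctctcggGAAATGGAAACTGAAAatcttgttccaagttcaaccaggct
The Irf7, Ifit3 and Rsad2 windows held 1 match each and the Oas1a window 2 that overlap. A match describes the letters only, and no binding was measured here.

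Irf7 was at 12.6, 198 and 23.8 FPKM in week 4 and at 5.3, 8.94 and 9.07 FPKM in week 5. Ifit3, an antiviral protein that binds foreign RNA with its partners, was at 1.95, 26 and 4.41 FPKM and at 1.24, 0.798 and 1.01 FPKM. Oas1a, a sensor of double-stranded RNA, was at 3.85, 30 and 6.16 FPKM and at 2, 2.86 and 3.62 FPKM. Irf7 and Oas1a were not called between the weeks (adjusted p = 0.0649 and 0.0792). Replicate 2 of week 4 was the highest sample in each. It was more than 2-fold above the mean log2 value of the others of its week in 29 of 39 genes. Of the 39 genes 18 were called lower in week 5, beside 26.2% of all genes, and none higher, with a median of -0.84 relative to all genes. Without that replicate 14 were lower and the median was -0.31, and without replicate 1 of week 5 only 6 were lower. After median-ratio scaling 6 were lower, beside 12.2% of all genes, and after quantile normalization 3, beside 10%. Isg15, a ubiquitin-like protein, was at 13.9, 94.6 and 13.8 FPKM and at 2.76, 3.59 and 5.14 FPKM (-2.79 ± 0.74, adjusted p = 0.0146), lower without overlap, as was Rsad2 (viperin) at 1.02, 7.43 and 1.18 FPKM and at 0.197, 0.237 and 0.482 FPKM (-2.51 ± 0.76). Isg15 lost its call without replicate 1 of week 5, and Rsad2 without replicate 1 or 2 of week 5 and after median-ratio scaling. Between PBOO weeks 24 of the 39 were called higher and none lower, Isg15 by 1.11 and Rsad2 by 2.88. The week differences of Isg15 and Rsad2 differed between PBOO and normal samples by 3.91 and 5.39 (adjusted p = 0.00836 and 0.00239). Among 30 MHC genes RT1-CE4, a class I gene, was higher, at 6.4, 4.89 and 5.53 FPKM and at 16.6, 21.1 and 19.6 FPKM, and 3 were lower. Without replicate 1 of week 4 there were 10 lower, without replicate 3 of week 4 there was 1, and without replicate 1 or 3 of week 5 and after median-ratio scaling none. Reads of these near copies may have been split between them.

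Of 38 immediate early genes, which many cells switch on within minutes of a stimulus, 2 were called higher and 4 lower, with a median of 0.44 relative to all genes. Sik1, a salt-inducible kinase, was at 8.66, 12 and 7.26 FPKM in week 4 and at 37.6, 27.8 and 32 FPKM in week 5 (1.81 ± 0.20, adjusted p = 3.52e-04). Maff, a small MAF factor, was at 28.9, 15.7 and 16.9 FPKM and at 10.6, 6.3 and 7.18 FPKM (-1.32 ± 0.28). Fos and Egr1 spanned over 10-fold within week 5 and were not called. Without replicate 3 of week 5, 7 genes were called higher and 2 lower, and without replicate 2 of week 4 or replicate 1 or 2 of week 5 there was 1 higher. After median-ratio scaling 3 were higher and 1 lower. Of 28 promoters of the list, 5 held the CRE TGACGTCA on either strand (17.9%), against 1.7% of all promoters.

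Glucocorticoid response genes are induced by the ligand-bound receptor of the same name. Of 11 tested, 6 were called lower and none higher, under median-ratio scaling as well, and the median was -1.22 relative to all genes. Errfi1, a feedback inhibitor of the EGF receptor, was at 23.7, 51.6 and 48.5 FPKM in week 4 and at 4.2, 6.4 and 3.45 FPKM in week 5 (-3.08 ± 0.35, adjusted p = 3.77e-04). Tsc22d3, the glucocorticoid-induced leucine zipper, was at 23.6, 97.5 and 109 FPKM and at 10.8, 17.1 and 8.08 FPKM (-2.46 ± 0.60). Klf9 was at 23.8, 42.9 and 44.7 FPKM and at 6.12, 8.67 and 7.88 FPKM (-2.24 ± 0.26). No week 5 sample reached the week 4 range in these 3 genes. Cdkn1a, the p21 inhibitor of the cell cycle, was at 61, 51.6 and 42.8 FPKM and at 54.2, 44.3 and 59 FPKM, and Sgk1 (-0.52 ± 0.14) was not called either. Pdk4, a brake on glucose oxidation, was at 9.07, 45.8 and 47 FPKM and at 4.63, 5.73 and 4.63 FPKM (-2.42 ± 0.61). Replicate 1 of week 4 was the lowest sample of its week in each of these called genes, and without it 9 of the 11 were called lower.

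Of 15 clock genes 5 were called lower and none higher, with a median of -0.13 relative to all genes and beside 26.2% of all genes called lower. After median-ratio scaling 2 were lower and 2 higher. Per2, a repressor arm of the clock, was at 11.3, 17.1 and 21.3 FPKM in week 4 and at 3.64, 3.39 and 6.89 FPKM in week 5 (-1.84 ± 0.33, adjusted p = 0.00281). Nfil3, which opposes the D-box activators, was lower too (-1.92 ± 0.29). Dbp, one of those activators, was at 27.8, 55.6 and 58.5 FPKM and at 35.2, 25.6 and 42.9 FPKM, with groups that overlapped. Nr1d1, the REV-ERB alpha repressor, was at 27.9, 25.9 and 25.9 FPKM and at 30.1, 30.4 and 75.2 FPKM. The hour of collection was not given in the sources used here. The E-box CACGTG was found in 4 of 15 clock promoters (26.7%), against 5.79% of all.

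Housekeeping lists also depended on the scaling. Of 80 cytosolic ribosomal protein genes 47 were called lower and none higher, with a median of -0.60 relative to all genes, but after median-ratio scaling 16 were lower and 4 higher. They took 20.6% to 21.3% of the FPKM sum in week 4 and 12.4% to 13.4% in week 5. Members did not move by one factor. Rpl8 was at 357, 318 and 325 FPKM in week 4 and at 46.2, 41.7 and 47.2 FPKM in week 5 (-2.88 ± 0.08), while Rps14 was at 1412, 1526 and 1438 FPKM and at 1938, 1867 and 1790 FPKM (0.35 ± 0.08). Many ribosomal protein genes have pseudogenes that share reads with them. Of 58 nuclear respiratory chain genes 17 were lower and none higher, with a median of -0.27 relative to all genes. Of all genes, 26.2% were called lower. After median-ratio scaling 4 of the respiratory chain genes were lower. A further 20 genes of that list were at 0 in week 4. Ndufa10, a complex I subunit, was at 64.1, 63.8 and 65.8 FPKM and at 17.6, 18.3 and 17.9 FPKM (-1.84 ± 0.07).

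Glycolysis and hypoxia genes were mostly level: 17 of 25 had an interval within a 2-fold change, 1 was called higher and 2 lower. After median-ratio scaling 4 were higher and none lower. Without replicate 2 of week 4 none was lower, and without replicate 1 of week 5 none was higher and 1 lower. Vegfa, the vascular growth factor, was the higher one, at 25.9, 27.2 and 23.9 FPKM in week 4 and at 69.7, 55 and 47.4 FPKM in week 5 (1.14 ± 0.15, adjusted p = 6.19e-04), and fell short of a call without replicate 1 of week 5. Of 27 cell cycle genes 3 were lower and none higher, with a median 0.54 above all genes. The direction turned with the scaling, with 3 higher and 1 lower after median ratios and 9 higher and 1 lower after quantile normalization. Without replicate 3 of week 5, 3 were higher and 2 lower. Among the lower genes was Pcna, the sliding clamp of DNA replication, at 55, 59.6 and 63.9 FPKM and at 26, 29.3 and 23.4 FPKM (-1.18 ± 0.11), which lost its call after median-ratio scaling. Of 10 imprinted growth genes 3 were lower, beside 26.2% of all genes, with a median of -0.22 relative to all genes. Without replicate 2 of week 5 there were 5 lower. Grb10, a brake on insulin and IGF signalling, was at 15.3, 18.2 and 15.7 FPKM and at 3.62, 4.25 and 3.42 FPKM (-2.10 ± 0.13). Igf1 itself was among the 10 largest decreases, at 8.83, 17.5 and 23.9 FPKM and at 0.324, 0.85 and 0.131 FPKM (-5.10 ± 0.58). Of 23 histone genes, near copies that share reads, 3 were higher and 7 lower, and 5 and 3 after median-ratio scaling. The histone median was 0.16 above that of all genes. The estrogen receptor gene Esr1 was called lower, at 0.57, 1.51 and 1.6 FPKM and at 0.0255, 0.00363 and 0.0047 FPKM (adjusted p = 0.00115). No mitochondrially encoded or sex-linked gene of the lists could be tested.

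Of the 5 genes that the study followed, 4 could be tested and 2 were called lower in week 5. Fgf2, a growth factor for fibroblasts and smooth muscle, was at 4.07, 3.58 and 3.77 FPKM in week 4 and at 1.08, 1.15 and 1 FPKM in week 5 (-1.73 ± 0.15, adjusted p = 1.41e-04). Fgf2 kept its call after median-ratio scaling, with a log2 difference of -1.23, and lost it after quantile normalization. Ntrk2, the BDNF receptor TrkB, was at 0.965, 1.34 and 1.97 FPKM and at 0.0865, 0.361 and 0.0704 FPKM (-2.59 ± 0.50). Bdnf was below the filter, at 0.261, 0.047 and 0.031 FPKM and at 0.068, 0.11 and 0.252 FPKM. Gas6, a ligand of TAM receptors, was at 103, 127 and 153 FPKM and at 71.9, 85.3 and 74.5 FPKM (-0.71 ± 0.15), lower without overlap by less than 2-fold. Fgfr1, the FGF receptor of the stroma, was at 39.4, 48.8 and 45.9 FPKM and at 35.1, 36.8 and 33.6 FPKM. The study picked Fgf2 and Gas6 as secreted proteins high in PBOO at week 4 and low at week 5. That choice rested partly on these normal samples, so the values here are not independent of it.

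The same pair of weeks was then compared in PBOO samples, which share no library with the normal comparison. Of the 11131 genes, 4355 (39.1%) were called, 1402 (12.6%) higher and 2953 (26.5%) lower. In all 1865 genes were called in both comparisons in the same direction, 58.8% of the normal calls and 42.8% of the PBOO calls, and 65 were called in opposite directions. Of the 256 genes higher in normal week 5, 173 (67.6%) were higher in PBOO week 5, and of the 2918 lower genes 1692 (58.0%) were lower. Across genes the week differences in normal and PBOO samples had a Pearson correlation of 0.538 and a Spearman correlation of 0.578, as a description with no p, since genes are not independent replicates. The difference of the week differences was called in 2997 genes (26.9%). Itga1, a collagen-binding integrin of smooth muscle, was lower in both, with log2 differences of -4.6 in normal and -8.26 in PBOO samples. Lpp, a focal adhesion protein of smooth muscle, had -6.77 and -3.41. In both comparisons time cannot be told apart from the handling and processing of the sets.

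**Figure D5:**
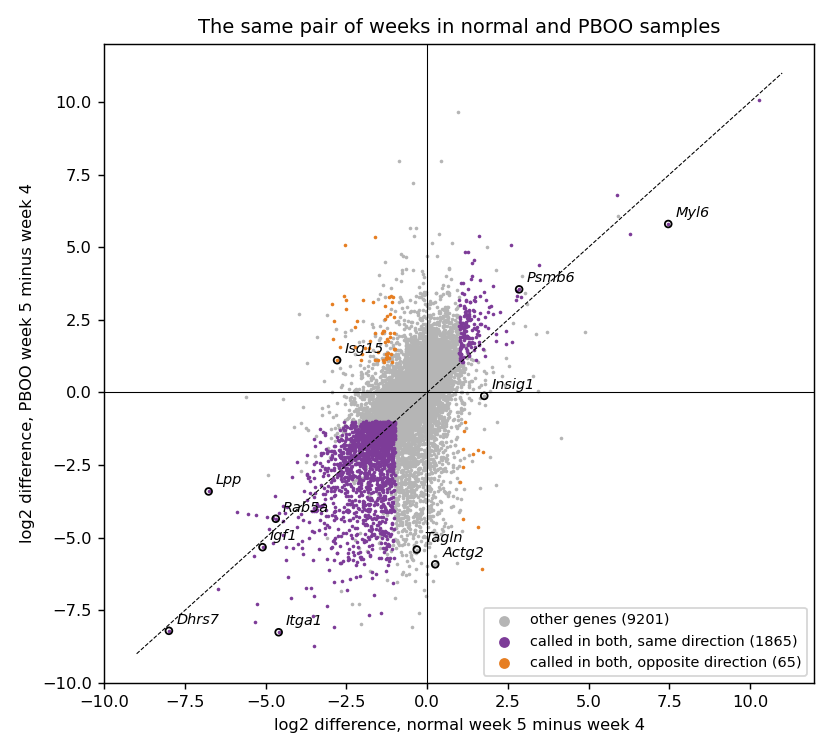
Log2 difference of week 5 minus week 4 in normal samples (horizontal axis) against that in PBOO samples (vertical axis) for 11131 genes, with log2(FPKM + 0.1) values (grey points). The 1865 genes called in both in the same direction are drawn in purple and the 65 called in opposite directions in orange. Myl6 and Dhrs7 lie far out near the dashed diagonal, while Tagln and Actg2 lie near 0 for normal samples and at -5.41 and -5.92 for PBOO samples.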

How the data were processed

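The authors deposited 1 table of FPKM values, and its 11 columns were matched to the samples by their labels. Per the study's methods, RNA was sequenced from TruSeq libraries, and reads were aligned with HISAT2, assembled with StringTie and counted with featureCounts. The submitters' processing notes name mm10 as the build for these rat samples, the table's symbols are rat symbols, and the annotation of each week is not given in the sources used here. No counts were used, so the depth behind each FPKM value is unknown and no counting interval is given. Normal samples were grouped by label. The study describes 3 biological replicates per group except PBOO week 5, and does not state how many animals gave each sample.

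Both weeks had to list a gene above 0 in 1 sample or more, and its mean had to reach 0.5 FPKM. Such genes were tested on log2(FPKM + 0.1) with limma 3.58.1 (R 4.3.3; lmFit, then eBayes with a trend), adjusted by the Benjamini-Hochberg method over all genes tested. Fold changes on this scale understate those of low genes. Calls needed an adjusted p below 0.05 and a 2-fold change. The PBOO fit used the same genes, and the difference of the week differences was a contrast over all 11 samples. Intervals are 95% intervals of the limma fit. The steps were tested on simulated data. Gene lists were described by counts and medians, with no set test.

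Genes were named by rule: the highest mean levels, the largest called differences between groups without overlap (mean of 5 FPKM or more), called and highest uncalled members of each list, the largest spread within a week, the highest genes at 0 in one week, and 5 genes the study followed. Further genes were named after their values were seen: Kdm5d, Eif2s3y, Ddx3y, Pbsn, Klk1c9, Scgb1d2, Myh9, Tsen34, Chrm2, Chrm3, Oas1a and Pkhd1l1. Some genes that the rule selects are not reported here. Members and lists were chosen with earlier results of these data known. Lists for small RNAs found no gene in the table. Alternatives covered the pseudocount, filters, scaling, the call rule, the fit and each left-out sample.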

Additional observations from a re-analysis of the deposited data

Results flagged for a closer look

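For the genes named here, the week difference in PBOO samples minus that in normal samples was tested in 1 model of all 11 samples. A difference of at least 1 on the log2 scale at an adjusted p below 0.05 (limma) was met by 44 of the 94 named genes that could be tested, against 26.9% of all genes. Each value below is that difference on the log2 scale, negative where PBOO fell further or rose less from week 4 to week 5.

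Contractile and smooth muscle genes that lay level or lower in the controls lay further down in PBOO: Tagln (-5.09), Actg2 (-6.17), Myh11 (-5.14), Des (-5.89), Kcnmb1 (-4.14), Dmd (-3.08), Itga8 (-3.17) and Itga1 (-3.66). Receptors and transport genes of the muscle gave P2rx1 (-4.96), Atp2a2 (-1.21), Chrm3 (-3.38) and Chrm2 (-4.71). Matrix genes gave Mfap5 (-5.19), Dcn (-3.68), Col3a1 (-4.48), Col1a1 (-4.70) and Thbs1 (-3.75). The genes that the study followed gave Fgf2 (-3.21), Gas6 (-3.48) and Fgfr1 (-2.63). Other negative values were Insig1 (-1.88), Cdh19 (-1.97), Klf9 (-2.44) and Grb10 (-1.93).

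Interferon response and inflammatory genes were positive, Irf7 (4.50), Ifit3 (5.67), Rsad2 (5.39), Oas1a (3.91), Isg15 (3.91), Cxcl13 (4.23) and RT1-CE4 (1.70), and in the interferon genes replicate 2 of normal week 4 was the highest control. Urothelial genes were positive as well, Grhl2 (1.41), Foxa1 (1.74), Shh (1.60), Tp63 (1.04) and Trpm4 (1.3), the last of them a channel gene. Further positive values were Lpp (3.37), Vegfa (2.25), Sik1 (1.37), Sgk1 (1.32), Fabp4 (1.22), Cdkn1a (1.08), Rps14 (1.07) and Rpl8 (1.05). PBOO week 5 had 2 samples. The model also holds the normal week 5 samples, whose Y-linked transcripts were near 0 in PBOO week 5. Among these normal samples, replicate 2 held the secretory transcripts described above. No cause was tested for any of these values.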

How the results depend on the processing

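The count of 3174 genes called between normal weeks became 5464 when genes at 0 in one week were kept, 2069 with a mean of at least 5 FPKM and 730 with a 4-fold change. The 256 higher calls became 611 with equal FPKM sums, 905 with median-ratio scaling, 1059 with quantile normalization, 2558 with genes at 0 kept, 168 with a mean of at least 5 FPKM, 164 with a pseudocount of 1 and 29 with a 4-fold change. The 2918 lower calls became 1708, 1353 and 1114 under the 3 scalings, 1901 with a mean of at least 5 FPKM and 701 with a 4-fold change. The 5362 genes with an interval within 2-fold became 2328 within 1.5-fold. Without 1 replicate the calls ranged from 2880 to 3541 (210 to 320 higher, 2639 to 3221 lower), the genes within 2-fold from 4823 to 5198 and the PBOO calls from 3642 to 4352. Counts under all other alternatives were within 1.5 times the main count.

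Of 94 named genes with a test 62 were called, and none of them changed sign. Under at least 1 alternative 16 lost the call, 10 of these without some replicate. Without replicate 1 of week 5, Ccl21, Dcn, Ifit3, Isg15, Romo1, Rsad2, Thbs1 and Vegfa were no longer called. Median-ratio scaling lost 7 calls (Chrm2, Dcn, Ifit3, Maff, Pcna, Rsad2 and Tp63) and gained 6. Replicate numbers are shared by the weeks, but same-numbered samples deviated together with correlations of 0.035, 0.246 and -0.276, so they were not read as pairs. With a replicate block 3175 genes were called, 1 named gene gained a call (Irf7) and none lost one. The causes were not tested. FPKM without counts leaves the error of low values unknown.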
